A study of Mus musculus with 12 samples.

Results

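Basement membranes are thin sheets of extracellular matrix that underlie epithelia, and the transcripts described here are those of 7 of their components: the collagen IV chains Col4a1 and Col4a2, the laminin chains Lama1, Lamb1 and Lamc1, the laminin-binding protein Nid1 (nidogen-1) and the collagen-binding glycoprotein Sparc. The 7 genes were chosen by name, and each was present among the 32285 genes of the count table and the 32245 rows of the FPKM table and passed the filter on low counts. RNA sequencing was done on mouse embryonic stem (ES) cells given in the labels as E14Tg2a.IV. The 3 genotypes were Smad4 knockout (S4KO), Smad2 and Smad3 double knockout (S2/3DKO) and wild type (WT). Whether S4KO shares the parental line of the others is uncertain, as the Hprt counts below show. Each genotype was collected as embryoid bodies grown for 4 days once LIF had been withdrawn (day 4) and as undifferentiated ES cells (day 0), with 2 libraries in each of the 6 groups. LIF is the cytokine that holds mouse ES cells in the undifferentiated state, and embryoid bodies are the aggregates in which they differentiate. Smad2 and Smad3 are the transcription factors through which Nodal, activin and TGF-beta receptors act, and Smad4 binds to them and to the Smads that answer to BMP.

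Collagen IV is secreted as a trimer of chains that joins into a network, and laminin-111 is the trimer of the products of Lama1, Lamb1 and Lamc1, the laminin of the early mouse embryo. Nidogen-1 binds the laminin gamma 1 chain and collagen IV and so links the networks, while Sparc binds collagen. In the early mouse embryo primitive endoderm and its parietal descendants are known as abundant sources of these proteins, parietal endoderm lays down the thick Reichert's membrane beside the trophoblast, and in embryoid bodies the outer endoderm deposits a basement membrane on which the inner cells polarise.

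Total counts per library were 31566376 to 55806858 (median 50521601). Levels are given as FPKM, which is scaled to transcript length and library and so allows genes to be compared, and folds come from counts. The targeted genes were still counted. Smad4 had 79.6 to 144 CPM (counts scaled to library size) in S4KO and 49.6 to 137 CPM in WT. Smad2 had 37.8 to 48.3 CPM in S2/3DKO and 29.5 to 96.8 CPM in WT, and Smad3 had 13.1 to 31.3 CPM in S2/3DKO and 9.68 to 50.2 CPM in WT. A count over the whole gene does not test the knockout labels, and neither the edited exons nor the number of clones is stated in the labels. Hprt, which is defective in the E14Tg2a line, had 169 to 212 CPM in the 4 S4KO libraries and 0.182 to 0.723 CPM in the other 8, so that the Smad4 genotype and a difference of parental line cannot be told apart. Over 744 genes of chromosome 8, which carries Col4a1 and Col4a2, the median log2 difference of S4KO from WT was 0.58 at day 4 and 0.51 at day 0, against -0.03 and 0.02 over 14061 genes of all chromosomes. Transcripts of 79 ribosomal protein genes took 13.8% and 10.1% of the counts of the WT day 0 libraries and 4.72% to 7.30% elsewhere. Nothing in the labels says that replicates were separate cultures, so p-values measure the spread between these libraries, part of which may be technical. In bulk samples, fewer cells of a type and less RNA per cell cannot be told apart.

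Across the 6 groups, S2/3DKO cells held the highest mean level of 6 of the 7 transcripts, at day 4 for Col4a1, Col4a2, Lama1, Lamb1 and Sparc and at day 0 for Nid1. The exception was Lamc1, whose highest mean was in S4KO at day 0 with overlapping libraries in neighbouring groups. The lowest mean was in WT ES cells for Col4a1 and Col4a2, and in S4KO embryoid bodies for Lama1, Lamc1 and Sparc. In FPKM, the group means spanned 33.8-fold for Col4a1 and 29.3-fold for Col4a2, against 3.63-fold to 5.97-fold for Lama1, Lamb1, Nid1 and Sparc and 1.71-fold for Lamc1. On the CPM scale, the lowest Lamc1 mean was instead in WT ES cells (187 CPM), and the highest was in S4KO ES cells (636 CPM). Sparc was the most abundant, with a median of 123 FPKM over the 12 libraries, followed by Lamc1 (53.4 FPKM) and Lamb1 (40.6 FPKM), and Col4a2 had the lowest median, 10.5 FPKM.

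**Figure D1:**
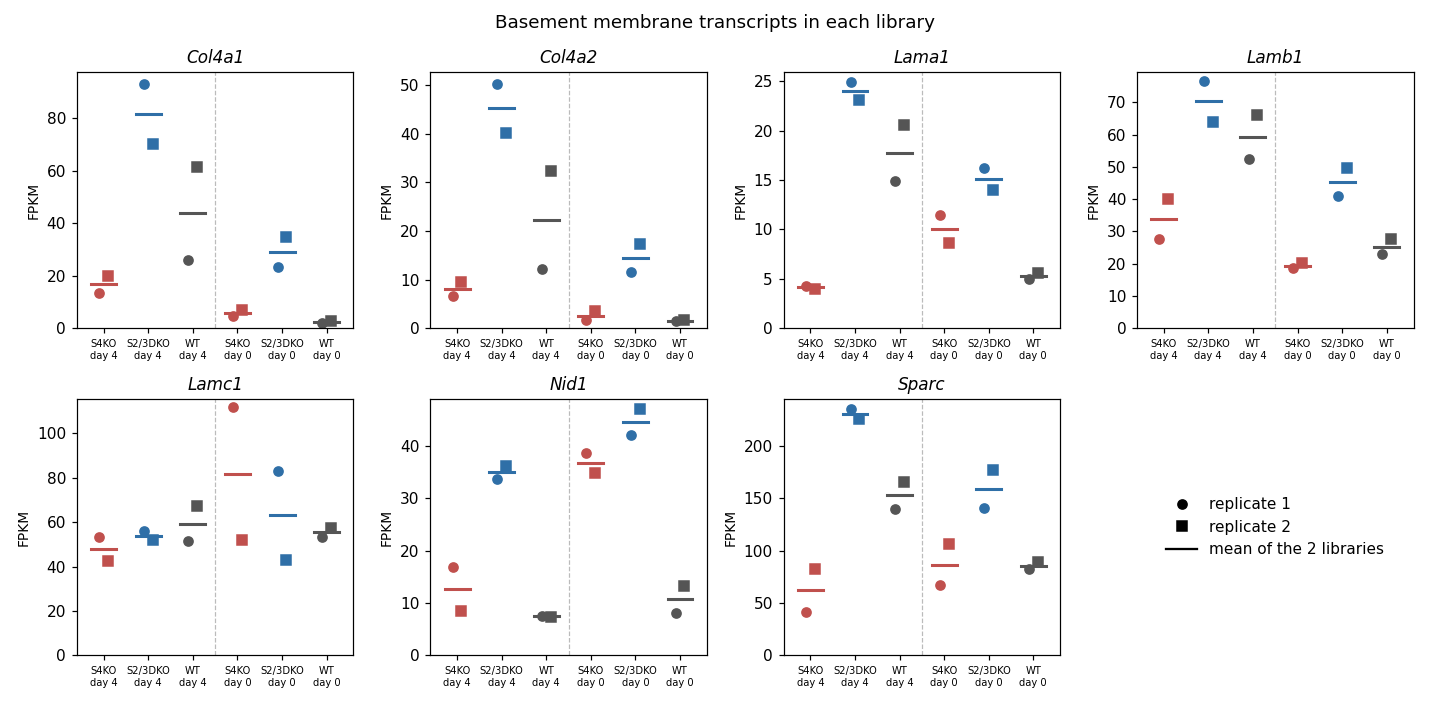
FPKM of the 7 transcripts in each of the 12 libraries (circle, replicate 1; square, replicate 2; line, mean of the 2 libraries), with S4KO in red, S2/3DKO in blue and WT in grey and day 4 left of day 0. S2/3DKO embryoid bodies had the highest Col4a1 libraries (93.2 and 70.4 FPKM) and WT ES cells the lowest (1.94 and 2.89 FPKM), while Lamc1 libraries overlapped between neighbouring groups.

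Col4a1 (ENSMUSG00000031502) and Col4a2 (ENSMUSG00000031503) encode the alpha 1 and alpha 2 chains, which form the most widespread collagen IV trimer. They lie head to head on chromosome 8 in build mm10, Col4a1 at 11198423 to 11312826 on the minus strand and Col4a2 at 11312805 to 11449287 on the plus strand, so that annotated exons of the pair overlap by 22 bases. An antisense gene, Gm15419, also overlaps exons of Col4a2. No source used here gives the strand setting of the counting, so reads from these bases cannot be assigned to a gene. The promoter windows below, from 250 bases before to 50 bases after each RefSeq start (RefSeq, build GRCm38.p6), are shown because the 2 genes start from shared bases and their log2 differences had the same sign in all 11 comparisons. Capitals mark the letters CCAAT (the CCAAT box) and GGGCGG (the GC box) on either strand.
Col4a1, chr8:11312777-11313076, minus strand: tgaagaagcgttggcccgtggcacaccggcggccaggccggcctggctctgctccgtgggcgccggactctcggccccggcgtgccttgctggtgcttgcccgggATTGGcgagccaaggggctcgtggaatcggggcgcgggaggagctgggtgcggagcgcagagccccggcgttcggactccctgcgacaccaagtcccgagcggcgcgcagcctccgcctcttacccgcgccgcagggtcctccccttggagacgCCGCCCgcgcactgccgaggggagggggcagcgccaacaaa
Col4a2, chr8:11312555-11312854, plus strand: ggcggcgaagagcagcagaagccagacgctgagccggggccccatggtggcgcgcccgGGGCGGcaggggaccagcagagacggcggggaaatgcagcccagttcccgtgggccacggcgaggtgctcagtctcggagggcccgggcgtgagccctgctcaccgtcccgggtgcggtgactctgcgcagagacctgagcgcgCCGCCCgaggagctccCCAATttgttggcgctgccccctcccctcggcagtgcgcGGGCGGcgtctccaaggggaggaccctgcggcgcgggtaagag
The windows share 78 bases, and the GC box at 11312812 to 11312817 is in both. The GC content was 74.0% in the Col4a1 window and 73.7% in the Col4a2 window, against a median of 52.7% over 32851 promoter windows of the same length. On either strand, the Col4a1 window held 1 CCAAT and 1 GGGCGG, and the Col4a2 window held 1 CCAAT, 3 GGGCGG and 1 CAGAC, the Smad box to which Smad3 and Smad4 bind. Neither held GATAA, the core of the GATA site. The shares of all windows holding these letters were 37.4% for CCAAT, 35.7% for GGGCGG, 49.6% for CAGAC and 25.4% for GATAA, and no motifs overlapped. The same table held windows for 3 more of the 7 genes: Lamb1 with 1 CCAAT, 2 GGGCGG and 1 CAGAC, Nid1 with 1 CCAAT and 1 GGGCGG, and Sparc with 2 CAGAC. None of the 5 windows held GATAA.

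The collagen IV pair had its lowest mean in WT ES cells and its highest in S2/3DKO embryoid bodies. Col4a1 had 13.6 and 19.9 FPKM in S4KO, 93.2 and 70.4 FPKM in S2/3DKO and 26.2 and 61.4 FPKM in WT embryoid bodies. At day 0 it had 4.71 and 6.90 FPKM in S4KO, 23.4 and 34.6 FPKM in S2/3DKO and 1.94 and 2.89 FPKM in WT. The groups did not overlap except for WT day 4, whose libraries differed 2.34-fold, and S2/3DKO day 0. Col4a2 had 6.73 and 9.44 FPKM in S4KO, 50.3 and 40.2 FPKM in S2/3DKO and 12.2 and 32.4 FPKM in WT embryoid bodies. At day 0 it had 1.69 and 3.47 FPKM in S4KO, 11.5 and 17.4 FPKM in S2/3DKO and 1.40 and 1.69 FPKM in WT. The order of the groups was the same as for Col4a1, and here S4KO and WT met at day 0. The ratio of Col4a1 to Col4a2 FPKM stayed between 1.39 and 2.78 (median 1.98). As a description, log2 CPM of the pair correlated at r = 0.99 over the 12 libraries, which share the 6 groups, and among 11164 other genes each was the closest to its partner.

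In differentiating WT cells, Col4a1 rose with a log2 fold change of 3.97 ± 0.43 (15.6-fold; edgeR quasi-likelihood test, adjusted p = 1.87e-04) and Col4a2 with 3.63 ± 0.48 (12.4-fold, adjusted p = 3.67e-04). Both calls held with each library left out in turn. Without differentiation, S2/3DKO ES cells were already above WT ES cells, by 3.34 ± 0.42 for Col4a1 (10.1-fold, adjusted p = 9.11e-04) and 2.98 ± 0.47 for Col4a2 (7.91-fold, adjusted p = 0.00215), again with each library left out. The further rise by day 4 in S2/3DKO was 1.43 ± 0.39 for Col4a1 (adjusted p = 0.0482), a call lost in 6 of the 12 fits that each left out a library, and 1.57 ± 0.44 for Col4a2 (adjusted p = 0.0544). The rise of Col4a1 in S2/3DKO was smaller than in WT by 2.54 ± 0.54 on the log2 scale (adjusted p = 0.0298 for the difference of the changes), and that of Col4a2 by 2.06 ± 0.62 (adjusted p = 0.0659). The difference for Col4a1 was called in 7 of the 12 fits without a library. The same difference for S4KO against WT did not pass, at -2.49 ± 0.55 for Col4a1 (adjusted p = 0.0907) and -2.02 ± 0.62 for Col4a2 (adjusted p = 0.123). Both passed with no filter, DESeq2 and the length and GC correction (adjusted p of 0.00104 to 0.0344 over the 2 genes). At day 4 itself, S2/3DKO exceeded WT by 0.81 ± 0.38 for Col4a1 (adjusted p = 0.178) and 0.93 ± 0.43 for Col4a2 (adjusted p = 0.173). Without WT day 4 replicate 2, the higher of its pair, these became 1.49 (adjusted p = 0.0236) and 1.75 (adjusted p = 0.0221).

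In S4KO, Col4a1 and Col4a2 rose by day 4, by 1.48 ± 0.39 (adjusted p = 0.0364) and 1.61 ± 0.44 (adjusted p = 0.0439). With each library left out in turn, the Col4a1 call held in 7 of 12 fits and the Col4a2 call in 6 of 12, and both were lost, for example, without S4KO day 4 replicate 2 (1.15 and 1.32) and without S4KO day 0 replicate 1 (1.21 and 1.16). Against WT the pair did not pass at day 4, at -1.40 ± 0.39 for Col4a1 (adjusted p = 0.0985) and -1.48 ± 0.44 for Col4a2 (adjusted p = 0.125), and passed after a correction for length and GC content (-1.43 with adjusted p = 0.0153, and -1.56 with adjusted p = 0.0146). At day 0 the differences were 1.09 ± 0.39 (adjusted p = 0.0687) and 0.54 ± 0.44 (adjusted p = 0.412). Col4a1 passed there under 6 of the 11 alternatives other than leaving out a library, with values of 1.07 to 1.11 and adjusted p of 0.0134 to 0.0491. Both genes lie on the chromosome whose median was higher in S4KO than in WT by the amounts given above, and the part of that shift in these values was not tested. Against S2/3DKO the pair was 4.60-fold to 5.44-fold lower in S4KO over both days, at -2.20 ± 0.40 for Col4a1 (adjusted p = 0.00532) and -2.41 ± 0.45 for Col4a2 (adjusted p = 0.00655) at day 4, and at -2.25 ± 0.40 (adjusted p = 0.00849) and -2.44 ± 0.45 (adjusted p = 0.0113) at day 0. The chromosome 8 median in that comparison was on the other side, 0.67 at day 4 and 0.69 at day 0. The day 4 calls held with each library left out, and at day 0 both were lost without S4KO day 0 replicate 1 (adjusted p = 0.0583 and 0.0690), and Col4a2 also without S2/3DKO day 0 replicate 2 (adjusted p = 0.0612).

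Lama1 (ENSMUSG00000032796, chromosome 17, 67697259 to 67822647, plus strand) encodes the alpha chain of laminin-111, which binds the receptors on the cell surface. It had 4.31 and 3.97 FPKM in S4KO, 24.9 and 23.1 FPKM in S2/3DKO and 14.9 and 20.6 FPKM in WT embryoid bodies. In ES cells it had 11.5 and 8.63 FPKM in S4KO, 16.2 and 14 FPKM in S2/3DKO and 4.97 and 5.59 FPKM in WT. The direction of the change with time thus differed between the genotypes, with S4KO embryoid bodies below and WT embryoid bodies above their own ES cells and no overlap in either. Lama1 fell by 1.33 ± 0.23 on the log2 scale in S4KO (adjusted p = 0.00712) and rose by 1.53 ± 0.23 in WT (adjusted p = 6.46e-04), and its change in S2/3DKO was 0.59 ± 0.22 (adjusted p = 0.134). The change in S4KO was lower than that in WT by 2.86 ± 0.32 (adjusted p = 0.00412), and this difference held with each library left out. The drop within S4KO lost its call without S4KO day 4 replicate 2 (-1.31, adjusted p = 0.0798).

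At day 4, Lama1 was lower in S4KO than in WT by 2.12 ± 0.23 on the log2 scale (4.34-fold, adjusted p = 0.00156) and lower than in S2/3DKO by 2.45 ± 0.24 (5.48-fold, adjusted p = 1.95e-04). Both calls held without any single library. In ES cells it was higher in both knockouts than in WT, by 0.75 ± 0.23 in S4KO (adjusted p = 0.0397) and 1.29 ± 0.23 in S2/3DKO (adjusted p = 0.00335). The S4KO call was lost in 7 of the 12 fits without a library, among them those without WT day 0 replicate 1 (0.72, adjusted p = 0.224) and WT day 0 replicate 2 (0.77, adjusted p = 0.141), and the S2/3DKO call in none. With the length and GC correction the S4KO value was 0.46 (adjusted p = 0.0714).

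Lamb1 (ENSMUSG00000002900, chromosome 12, 31265234 to 31329644, plus strand), the beta chain, varied less. It had 27.7 and 40.2 FPKM in S4KO, 76.6 and 64.1 FPKM in S2/3DKO and 52.5 and 66.2 FPKM in WT at day 4, and 18.7 and 20.1, 41.0 and 49.6, and 23 and 27.6 FPKM in the same order at day 0. S4KO libraries were the lowest of their day on both days, and S2/3DKO and WT overlapped at day 4. Lamb1 was lower in S4KO than in S2/3DKO by 0.97 ± 0.23 at day 4 (adjusted p = 0.0188) and by 1.17 ± 0.23 at day 0 (adjusted p = 0.0143). It rose in WT by 1.0 ± 0.23 (adjusted p = 0.00510), but the value was 0.43 (adjusted p = 0.114) after the correction for length and GC content, and 0.93 (adjusted p = 0.0548) without WT day 0 replicate 1. Against WT, S2/3DKO ES cells were at 0.60 ± 0.23 (adjusted p = 0.0647) and S4KO ES cells at -0.58 ± 0.23 (adjusted p = 0.0965). The length and GC correction gave 0.18 (adjusted p = 0.540) and -0.92 (adjusted p = 0.0153). The S2/3DKO difference passed with at least 1 CPM in 2 libraries, DESeq2, the limma fits and only the groups compared. Its values there were 0.62 to 0.84 (adjusted p of 0.0180 to 0.0493). It did not pass under the other alternatives, apart from some fits that left out a library.

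Lamc1 (ENSMUSG00000026478, chromosome 1, 153218922 to 153332786, minus strand), the gamma chain that nidogen binds, gave different answers in counts and in FPKM. It had 53.4 and 42.5 FPKM in S4KO, 56.0 and 51.9 FPKM in S2/3DKO and 51.4 and 67.3 FPKM in WT at day 4. At day 0 it had 112 and 51.9 FPKM in S4KO, 83.2 and 43.1 FPKM in S2/3DKO and 53.4 and 57.5 FPKM in WT. In FPKM every neighbouring pair of groups overlapped. In CPM, WT ES cells stood apart below the rest, with 879 and 394 CPM in S4KO and 634 and 314 CPM in S2/3DKO against 157 and 218 CPM in WT. The count test called Lamc1 higher at day 0 in S4KO (1.76 ± 0.39, adjusted p = 0.0142) and in S2/3DKO (1.34 ± 0.39, adjusted p = 0.0243), whereas limma on log2(FPKM + 1) gave 0.46 (adjusted p = 0.370) and 0.11 (adjusted p = 0.835).

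These scales parted in the WT ES cells. Relative to the median gene of its library, Lamc1 had 2.57 to 2.65 times as many CPM per FPKM in the 8 knockout libraries, 2.20 and 2.07 times in WT day 4, and 0.841 and 1.16 times in WT day 0. The shift between S2/3DKO and WT at day 0 was 1.41 on the log2 scale, and 0.0546% of 10987 genes shifted as far. For the other 6 genes it was between -0.03 and 0.01. Leaving out WT day 0 replicate 1 ended both calls (1.55 in S4KO and 1.12 in S2/3DKO), as did leaving out the first replicate of the knockout itself at day 0 (1.07 and 0.76). Leaving out WT day 0 replicate 2 ended the S2/3DKO call (1.59). At day 4 the log2 differences from WT in counts were -0.04 ± 0.38 in S4KO (adjusted p = 0.989) and 0.05 ± 0.38 in S2/3DKO (adjusted p = 0.952), and the S2/3DKO value turned to -0.12 in FPKM.

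Because the laminin trimer takes 1 chain of each kind, the chain transcripts were also set against each other per library. Lama1 reached 0.156 and 0.0988 of the Lamb1 FPKM in S4KO embryoid bodies, the lowest of the 12 libraries, and 0.616 and 0.429 in S4KO ES cells, the highest. It was at 0.325 and 0.361 in S2/3DKO and 0.284 and 0.312 in WT at day 4, and at 0.395 and 0.282 in S2/3DKO and 0.216 and 0.202 in WT at day 0. Lama1 was thus the scarcest of the 3 laminin-111 transcripts in every library. The Lamc1 to Lamb1 ratio ranged from 0.731 to 6.01, with S4KO day 0 replicate 1 at the top and the S2/3DKO day 4 libraries at the bottom. A transcript ratio does not give the ratio of the proteins.

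**Figure D2:**
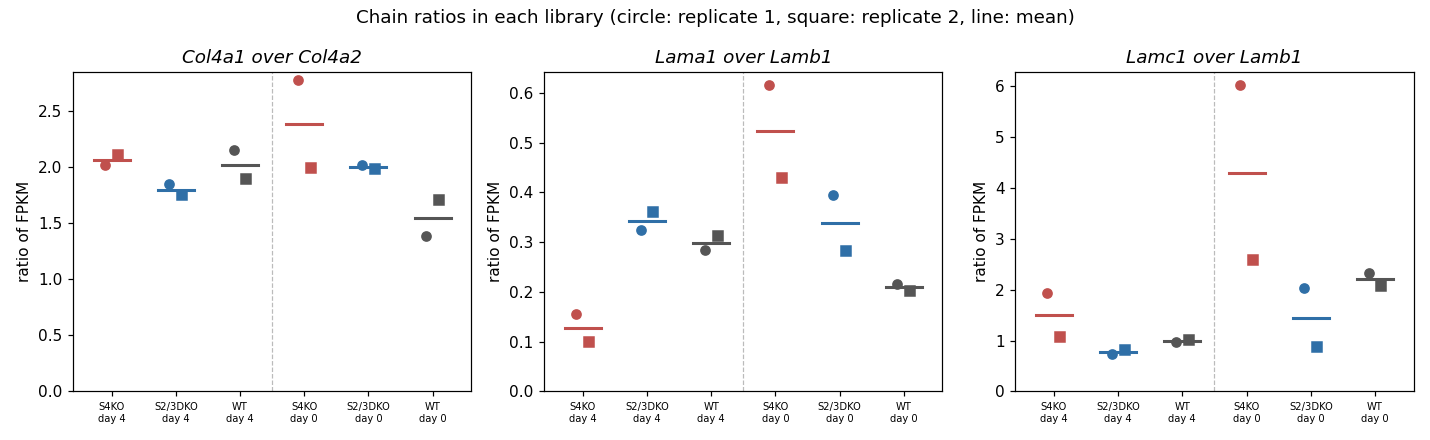
Ratios of FPKM in each library (circle, replicate 1; square, replicate 2; line, mean of the 2 libraries), with S4KO in red, S2/3DKO in blue and WT in grey and day 4 left of day 0. The Col4a1 to Col4a2 ratio lay between 1.39 and 2.78 in all 12 libraries, and the Lama1 to Lamb1 ratio was lowest in S4KO day 4 (0.156 and 0.0988) and highest in S4KO day 0 (0.616 and 0.429).

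Nid1 (ENSMUSG00000005397, chromosome 13, 13437551 to 13512269, plus strand) had the pattern least like the collagen genes. It had 16.8 and 8.51 FPKM in S4KO, 33.7 and 36.1 FPKM in S2/3DKO and 7.59 and 7.32 FPKM in WT embryoid bodies. In ES cells it had 38.7 and 34.7 FPKM in S4KO, 42.1 and 46.9 FPKM in S2/3DKO and 8.14 and 13.3 FPKM in WT. Both knockouts were above WT on each day without overlap, and within each genotype the embryoid bodies were below the ES cells. In S2/3DKO it was higher than in WT by 2.13 ± 0.30 at day 4 (4.38-fold, adjusted p = 0.00120) and by 1.83 ± 0.30 at day 0 (3.55-fold, adjusted p = 0.00252), and both calls held without any single library. In S4KO it was at 0.74 ± 0.29 at day 4 (adjusted p = 0.262) and higher by 1.60 ± 0.30 at day 0 (adjusted p = 0.00874), a call that ended when WT day 0 replicate 1 (1.34, adjusted p = 0.118) or the first S4KO day 0 library (1.5, adjusted p = 0.0691) was left out. It fell with time in S4KO by 1.60 ± 0.30 on the log2 scale (adjusted p = 0.00951; -1.22 and adjusted p = 0.0850 without S4KO day 4 replicate 2), and its change in WT was -0.73 ± 0.29 (adjusted p = 0.0595; -1.15 and adjusted p = 0.00590 with the length and GC correction). An antisense gene, Gm48682, overlaps its exons, and without a strand setting the reads of the pair cannot be told apart.

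Sparc (ENSMUSG00000018593, chromosome 11, 55394500 to 55423183, minus strand) had 41.9 and 82.4 FPKM in S4KO, 235 and 226 FPKM in S2/3DKO and 140 and 166 FPKM in WT at day 4. At day 0 it had 67.3 and 106 FPKM in S4KO, 141 and 177 FPKM in S2/3DKO and 82.2 and 88.8 FPKM in WT. S4KO was the lowest group at day 4 and overlapped WT at day 0. Sparc was lower in S4KO than in S2/3DKO at day 4 by 1.75 ± 0.32 on the log2 scale (3.37-fold, adjusted p = 0.00610), a call that held without any single library. Against WT at day 4 it was at -1.32 ± 0.32 in S4KO (adjusted p = 0.0683), with a call in 3 of the 12 fits without a library, and at 0.43 ± 0.32 in S2/3DKO (adjusted p = 0.395). Its change with time in WT was 0.64 ± 0.32 (adjusted p = 0.123; 0.85 and adjusted p = 0.0388 with the length and GC correction).

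Counted over the 7 genes, the comparisons with the most calls were S4KO against S2/3DKO at day 4 and S2/3DKO against WT at day 0. In S4KO embryoid bodies against S2/3DKO embryoid bodies 6 of 7 were lower, all but Lamc1, where 12.3% of the 18693 genes tested were called and 6.45% were lower. The median log2 fold change of the 7 was -1.75, against 0.04 over all genes, and the libraries of 6 of 7 did not overlap in CPM, as for 67.9% of all genes. Col4a1, Col4a2, Lama1 and Sparc passed in all 12 fits without a library, and Lamb1 and Nid1 in 9 each. At day 0 the same comparison called 3 of 7, all lower in S4KO (Col4a1, Col4a2 and Lamb1), where 5.53% of genes were called and 3.38% were lower. Libraries did not overlap for 6 of 7, and for 44.0% of all genes. Without S4KO day 0 replicate 1 none of the 7 passed, and without S2/3DKO day 0 replicate 2 only Col4a1 did.

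Against WT, S2/3DKO ES cells were higher in 5 of 7 (Col4a1, Col4a2, Nid1, Lamc1 and Lama1), where 31.0% of all genes were called and 16.7% were higher. The median of the 7 was 1.34, the value of Lamc1, against 0.02 over all genes. Lamc1 gave 0.11 in limma on log2(FPKM + 1) (adjusted p = 0.835), and its libraries overlapped in FPKM. All 7 had libraries that did not overlap in CPM, as did 69.5% of all genes. Without WT day 0 replicate 1 the comparison called 921 genes, against 5799 with it, and 4 of the 7. In S2/3DKO embryoid bodies against WT 1 of 7 passed, Nid1, where 15.2% of genes were called and 7.21% were higher. The median of the 7 was 0.43, and libraries did not overlap for 5 of 7 and for 61.2% of all genes.

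In S4KO embryoid bodies against WT 1 of 7 passed, Lama1, which was lower, where 1.73% of genes were called and 1.05% were lower. The median of the 7 was -1.32, and 6 of 7 had libraries that did not overlap between the groups, as did 40.3% of all genes. DESeq2 and edgeR without a filter each called 5 of 7 lower (Col4a1, Col4a2, Lama1, Lamb1 and Sparc), where 3.26% and 3.04% of all genes were called and 1.66% and 1.76% were lower. In S4KO ES cells against WT, 3 of 7 were higher (Lamc1, Nid1 and Lama1), where 19.6% of genes were called and 10.5% were higher. Of these, Lamc1 gave 0.46 in limma on log2(FPKM + 1) (adjusted p = 0.370). Libraries did not overlap in CPM for 5 of 7 and for 67.0% of all genes. None of the 7 passed there without WT day 0 replicate 1, where 18 genes in all were called, or without S4KO day 0 replicate 1, where 96 were.

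**Figure D3:**
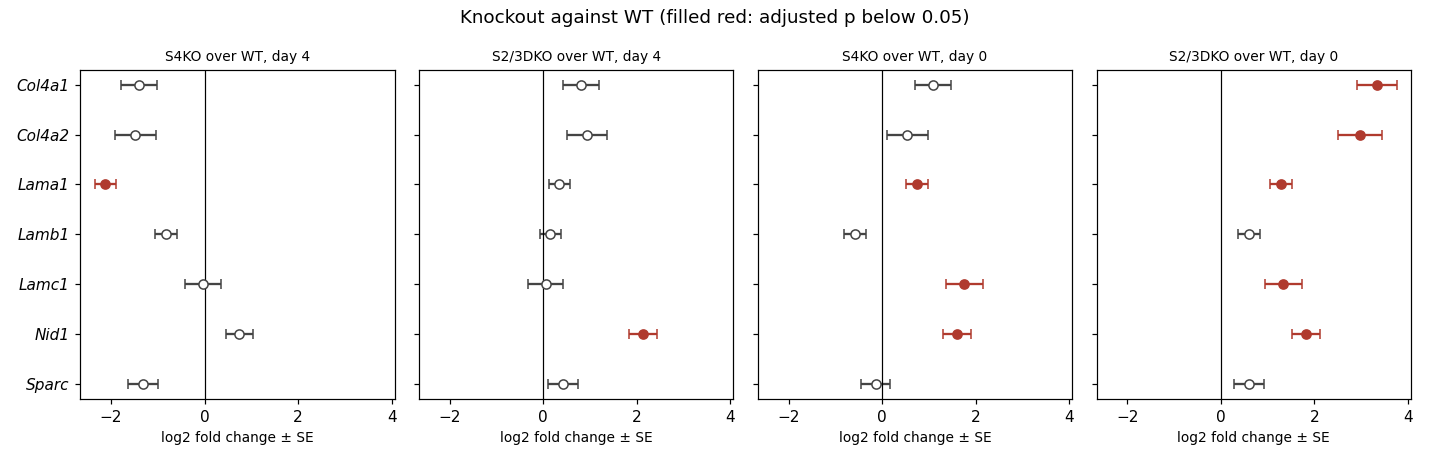
Log2 fold change of each knockout over WT for the 7 genes (points, with bars for the standard error; filled red, adjusted p below 0.05 by edgeR), at day 4 in the left pair of panels and day 0 in the right pair. In S2/3DKO ES cells 5 of 7 passed above 0, led by Col4a1 at 3.34, and in S4KO embryoid bodies Lama1 alone passed, at -2.12. Lamc1, called in the ES cells of both knockouts, passed in neither by limma on FPKM.

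With differentiation, WT cells gained 4 of 7 (Col4a1, Col4a2, Lama1 and Lamb1), where 43.6% of all genes were called and 23.8% were higher. The median of the 7 was 1.0, against 0.08 over all genes, and libraries did not overlap for 7 of 7 and for 76.5% of all genes. In S2/3DKO 1 of 7 was higher, Col4a1, where 7.03% of genes were called and 3.57% were higher, with no overlap for 6 of 7 and for 60.2% of all genes. Col4a2 just missed the threshold there, at 1.57 ± 0.44 (adjusted p = 0.0544). In S4KO 2 of 7 were higher, Col4a1 and Col4a2, and 2 were lower, Nid1 and Lama1, where 8.90% were called, 5.08% higher and 3.81% lower, with no overlap for 6 of 7 and for 56.5% of all genes. None of these 4 passed without S4KO day 4 replicate 2, or in a fit with the S4KO libraries alone, which called 16 genes in all. The change with time differed from that in WT for 1 of 7 in S2/3DKO, Col4a1, where 6.10% of genes did and 4.26% were lower, and for 1 of 7 in S4KO, Lama1, where 0.150% did and 0.139% were lower. These comparisons share their WT libraries.

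**Figure D4:**
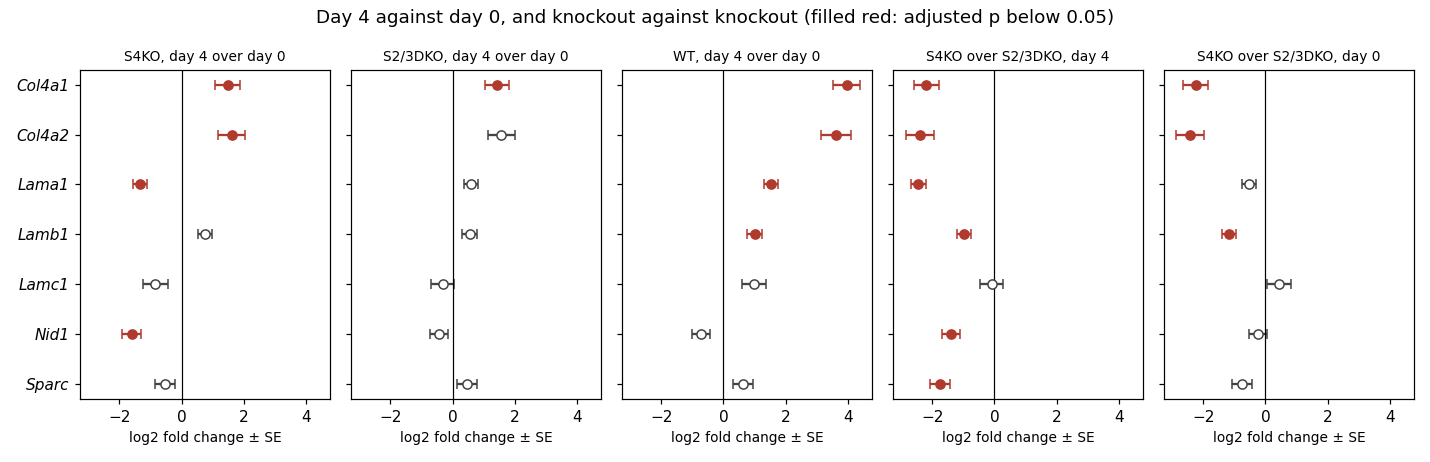
Log2 fold change of day 4 over day 0 in each genotype (left 3 panels) and of S4KO over S2/3DKO (right 2 panels) for the 7 genes, as points with bars for the standard error (filled red, adjusted p below 0.05 by edgeR). Lama1 was at -1.33 in S4KO and 1.53 in WT, and at day 4 every gene but Lamc1 passed below 0 in S4KO over S2/3DKO.

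The remaining chains of these families were scarce or had patterns of their own. Col4a3, Col4a4, Col4a5 and Col4a6, the other collagen IV chains, had group means of at most 0.721 FPKM, the maximum being Col4a5 in WT embryoid bodies. Col4a5 and Col4a6, neighbours on the X chromosome, rose in WT by day 4 (2.84 ± 0.52 with adjusted p = 0.00177, and 4.05 ± 0.84 with adjusted p = 0.00319), and at day 4 both were lower in S2/3DKO than in WT (-2.06 and -3.70, with adjusted p = 0.0184 and 0.0113). Col4a5 also rose in S4KO (1.85 ± 0.51, adjusted p = 0.0436). Col4a1 and Col4a2, by contrast, had higher means in S2/3DKO than in WT at day 4, as given above. Among other laminin chains, Lama5, the other alpha chain of early embryos, had group means of 17.2 to 43.0 FPKM and Lamb2 5.37 to 18.9 FPKM, and neither was called in any comparison. Lama2, Lama3, Lama4, Lamb3 and Lamc3 had group means of at most 2.17 FPKM. Lama3 was higher in S2/3DKO than in WT at day 0 (1.38 ± 0.38, adjusted p = 0.0203) and fell with time in S4KO (-1.77, adjusted p = 0.0194) and S2/3DKO (-1.62, adjusted p = 0.0320).

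Of 16 other basement membrane components, 8 rose and none fell in WT by day 4, where 43.6% of all genes changed and 23.8% rose. Agrn was among the 8 (agrin, 0.83, adjusted p = 0.0423), and the list median was 1.02. In S4KO 4 rose, where 5.08% of all genes did, and in S2/3DKO 2 rose, where 3.57% did. The 3 most abundant were Nid2 (nidogen-2), Col18a1 and Agrn. Nid2 had group means of 54.0 to 115 FPKM, above Nid1 in every group, and was not called in any comparison: it was at -0.59 ± 0.31 in S2/3DKO against WT at day 4 (adjusted p = 0.237), where Nid1 was at 2.13. In S2/3DKO embryoid bodies against WT 2 of 16 were higher (Tinagl1 and Smoc1) and 4 lower (Frem1, Frem2, Fras1 and Hmcn1, the last of these hemicentin-1), where 15.2% of all genes were called.

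Among 17 genes of collagen folding and export, 5 were higher and 2 lower in S2/3DKO than in WT at day 0, where 31.0% of all genes were called, with a list median of 0.11. The higher ones were Colgalt1, Mia3, Plod2, P4ha1 and P4ha2, and the lower ones Fkbp10 and Ppib. Plod2, a lysyl hydroxylase of procollagen, had 52.0 and 74.0 FPKM in S2/3DKO, 50.2 and 35.7 FPKM in S4KO and 10.2 and 16.1 FPKM in WT ES cells, a log2 difference from WT of 1.97 ± 0.29 in S2/3DKO (adjusted p = 0.00167) and 1.5 ± 0.28 in S4KO (adjusted p = 0.00912). P4hb, the beta subunit of prolyl 4-hydroxylase and the most abundant of the list at 144 to 387 FPKM, was not called in any comparison. The second most abundant, Ppib (cyclophilin B), was lower at day 0 in S4KO (-0.88 ± 0.22, adjusted p = 0.0212) and in S2/3DKO (-0.81 ± 0.22, adjusted p = 0.0184). In WT 5 rose and 4 fell by day 4, beside 43.6% of all genes called, and in S4KO embryoid bodies none of the 17 passed against WT.

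Among 14 genes of crosslinking and turnover, Pxdn (peroxidasin, which crosslinks collagen IV) rose by day 4 in all 3 genotypes, by 2.22 ± 0.32 in S4KO, 1.36 ± 0.31 in S2/3DKO and 3.24 ± 0.34 in WT (adjusted p = 0.00408, 0.0287 and 1.67e-04). It had 17.9 ± 7.86 FPKM in S4KO, 21.6 ± 1.36 in S2/3DKO and 26.1 ± 3.14 in WT embryoid bodies, against 3.61 ± 0.881, 8.45 ± 2.32 and 2.23 ± 0.407 in the ES cells of the same genotypes (mean ± SD, n = 2). The lysyl oxidase Loxl2 rose and the metalloproteinase inhibitor Timp1 fell in all 3 genotypes as well. As for Col4a1, the rise of Pxdn was smaller in S2/3DKO than in WT (-1.88 ± 0.44, adjusted p = 0.0364) and its level at day 0 was higher (1.56 ± 0.32, adjusted p = 0.00561).

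Of 13 receptors for basement membrane, 12 were tested and 5 were higher in S2/3DKO ES cells than in WT, where 16.7% of all genes were, among them Itgb1, the beta 1 integrin subunit (1.06 ± 0.24, adjusted p = 0.00826), and the syndecan Sdc4 (1.27 ± 0.37, adjusted p = 0.0258). In S4KO ES cells 2 were higher, where 10.5% of all genes were, Itgb1 (1.69 ± 0.24, adjusted p = 0.00559) and Dag1 (dystroglycan). Itgb1 had 137 and 112 FPKM in S4KO, 72.0 and 95.3 FPKM in S2/3DKO and 30.2 and 38.1 FPKM in WT ES cells, and it lies on chromosome 8, whose median moved with S4KO. By day 4 it had risen in WT (1.17 ± 0.24, adjusted p = 0.00290), and at day 4 it passed the test in neither knockout against WT. Itga6, an alpha subunit of laminin-binding integrins, had group means of 16 to 67.1 FPKM.

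Markers of cell types that make basement membrane, and of the trophoblast beside them, also differed between the groups, and their part in the results was not tested. The 8 primitive endoderm factors summed to 7.25 to 13.1 FPKM in S4KO, 27.5 to 38.7 FPKM in S2/3DKO and 105 to 112 FPKM in WT embryoid bodies, and to 2.55 to 3.68, 6.43 to 10.3 and 0.977 to 1.30 FPKM in the ES cells in the same order, with Foxa2 at 0 in WT. All 8 rose by day 4 in WT, where 23.8% of all genes did, and all 8 were lower in S4KO than in WT embryoid bodies, where 1.05% of all genes were, with a median of -3.27. In S2/3DKO 4 of 8 were lower than in WT at day 4 (Dab2, Foxa2 and Gata4 among them), where 8% of all genes were. The median of the 8 was -1.15. At day 0, 6 of 8 were higher in S2/3DKO than in WT, where 16.7% of all genes were, with a median of 2.72. On the same day 5 of 8 were higher in S4KO than in WT, where 10.5% of all genes were, with a median of 1.78. Gata4 was higher at day 0 in S2/3DKO (2.74 ± 0.30, adjusted p = 4.97e-04) and in S4KO (1.66 ± 0.30, adjusted p = 0.00834).

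The 8 parietal endoderm markers summed to 45.7 to 72.9 FPKM in S4KO, 382 to 434 FPKM in S2/3DKO and 134 to 152 FPKM in WT embryoid bodies, and to 26.4 to 44.3, 90.0 to 162 and 53.9 to 55.0 FPKM in the ES cells in the same order. Most of the S2/3DKO sum was Krt19, a keratin that trophoblast also expresses, with 260 and 315 FPKM in S2/3DKO, 16.6 and 41.8 FPKM in S4KO and 10.9 and 29.5 FPKM in WT at day 4. Against WT at day 4, Krt19, Thbd, Plat and Tfpi were higher in S2/3DKO, and Srgn and Fst were lower. By group means, the markers other than Krt19 together were no higher in S2/3DKO than in WT at day 4. The 8 trophoblast markers summed to 250 to 266 FPKM in S2/3DKO, 28.9 to 40.6 FPKM in S4KO and 12.7 to 18.1 FPKM in WT embryoid bodies, and to 85.8 to 98.4, 22.4 to 29.2 and 23 to 25.6 FPKM in the ES cells. In S2/3DKO 7 of 8 were higher than in WT on both days, where 7.21% of all genes were at day 4 and 16.7% at day 0. Plac1 averaged 59.0 FPKM in S2/3DKO, 0.208 FPKM in S4KO and 0.361 FPKM in WT embryoid bodies, Krt7 57.6, 1.37 and 1.93 FPKM, and Tfap2c 73.1, 30.3 and 10.3 FPKM. The 8 visceral endoderm markers summed to 5.57 to 8.53 FPKM in S4KO, 17.9 to 26.5 FPKM in S2/3DKO and 106 to 123 FPKM in WT embryoid bodies. Against WT at day 4, 5 of 8 were lower in S4KO (median -4.43), where 1.05% of all genes were. On the same day 4 of 8 were lower in S2/3DKO than in WT (median -2.75), where 8% of all genes were. Cubn averaged 1.29, 4.77 and 29.8 FPKM in S4KO, S2/3DKO and WT embryoid bodies, and Rbp4 2.01, 4.65 and 7.67 FPKM. In ES cells the list summed to at most 7.73 FPKM, with Ttr at 0 in every group and Afp at 0 in S2/3DKO.

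**Figure D5:**
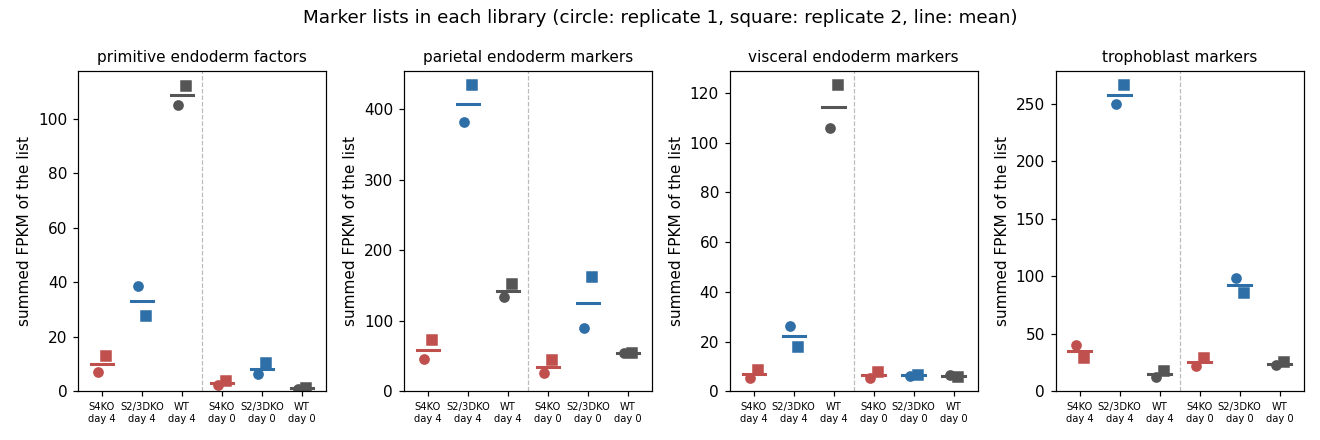
Summed FPKM of 4 marker lists of 8 genes each, per library (circle, replicate 1; square, replicate 2; line, mean of the 2 libraries), with S4KO in red, S2/3DKO in blue and WT in grey and day 4 left of day 0. Primitive and visceral endoderm sums were highest in WT embryoid bodies (105 to 112 and 106 to 123), and parietal endoderm and trophoblast sums in S2/3DKO embryoid bodies (382 to 434 and 250 to 266). Within the parietal sum at day 4, Krt19, which trophoblast also expresses, averaged 288 FPKM in S2/3DKO and 20.2 FPKM in WT.

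For a search by likeness, log2 CPM of 11165 genes was set against the mean standardised log2 CPM of the 7 over the 12 libraries. The 7 genes, which enter this mean, followed it unequally. Their r was 0.90 for Col4a1 and Lama1, 0.88 for Col4a2, 0.79 for Sparc and 0.77 for Lamb1. It was only 0.43 for Lamc1 and 0.40 for Nid1, so likeness to the mean is not likeness to each gene. The likeness is a description, since the libraries share the 6 groups and their depth. With Gm and Rik models passed over, the 5 closest genes outside the 7 were Creb3l2 (r = 0.96), Ankrd33b (0.95), Exd1, Nxf7 and Mfn2 (0.94 each). Creb3l2 had mean levels of 1.51, 3.97 and 2.55 FPKM in S4KO, S2/3DKO and WT embryoid bodies and 1.67, 2.57 and 0.805 FPKM in the ES cells.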

How the data were processed

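Per the labels' protocols, a TruSeq RNA kit was used for the 12 libraries, which were grouped by the genotype and day in their titles. The authors deposited whole-number counts per Ensembl gene, with no normalization recorded, and FPKM values (fragments scaled to transcript length and library size) per gene symbol. Build mm10, Cufflinks, StringTie and DESeq2 are named without roles in the submitters' processing notes, and the sources used here do not give the aligner, annotation or strand setting. Values of 1 (4966) were rarer in the counts than values of 2 (6989), and the counts may therefore not be plain read tallies. GENCODE M21 gave symbols for 32235 of 32285 gene IDs.

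The main test of the counts was the quasi-likelihood test of edgeR 4.0.16 in R 4.3.3 (TMM, filterByExpr, 18693 genes, all 12 libraries, a term for each group). P-values were adjusted by Benjamini-Hochberg over all genes tested and called below 0.05. Errors of log2 fold changes are standard errors from the F statistic, and no replicate was a copy of another (chi-square per gene of 31.2 or more). The fits were tested on simulated counts. Alternatives were RLE size factors, TMM without chromosomes 8, X and Y, at least 1 CPM in 2 libraries, no filter, DESeq2 1.42.0, limma 3.58.1 on log2(FPKM + 1) or log2(FPKM + 0.1), a replicate block, only the groups compared, a length and GC correction (5-df splines, GENCODE M21), a minimum absolute log2 fold change of 1, and leaving out each library. Where a fit left a group 1 library, that library was taken to vary as the rest do. Chromosome medians cover genes of mean CPM 1 or more, and the likeness search genes of 5 or more. Gm and Rik models were compared in that search and passed over when the closest genes were named. From each list beyond the collagen IV and laminin chains, the 3 genes of highest mean FPKM were named. Others (Ttr, Mesp1, Lum, Emcn, Hmcn1 and the Frem genes, Tinagl1, Smoc1, Dag1, the remaining members of called groups, Hprt) were named after their values were seen. The 7 genes and the lists were chosen with earlier results of these data known. Promoter windows and motif shares come from RefSeq, build GRCm38.p6. Results for some genes of the lists are not reported here.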

Additional observations from a re-analysis of the deposited data

Results flagged for a closer look

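The change of Col4a1 between day 0 and day 4 differed between genotypes: the log2 change was 1.43 in S2/3DKO and 3.97 in WT, a difference of -2.54 ± 0.54 (edgeR interaction term, adjusted p = 0.0298). Over the 12 fits that each left out a library it ranged from -2.95 to -1.87, with adjusted p of 0.0178 to 0.156. It was not called without either WT day 0 library, either S2/3DKO day 4 library or S2/3DKO day 0 replicate 2. The same difference for S4KO, where the change was 1.48, was -2.49 ± 0.55 (adjusted p = 0.0907).

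The change of Lama1 differed in direction between S4KO, at -1.33, and WT, at 1.53, a difference of -2.86 ± 0.32 (adjusted p = 0.00412). Over the same 12 fits it ranged from -3.11 to -2.62, with adjusted p of 0.00190 to 0.0400.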

How the results depend on the processing

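Of 30 gene results that were called, 308 of 330 values under the alternatives other than leaving out a library kept direction and call and 22 lost the call. With each library left out, 310 of 360 kept the call and 50 lost it. None of these reversed. The members called in S4KO against WT at day 4 (1) were 5 with no filter or DESeq2, 4 with the length and GC correction, and 2 with limma on log2(FPKM + 1) or the replicate block. For day 4 against day 0 in S2/3DKO (1), they were 2, Col4a1 and Col4a2, with RLE factors, TMM without chromosomes 8, X and Y, 1 CPM in 2 libraries, no filter or DESeq2. They were the same 2 with limma on log2(FPKM + 1), the replicate block, only the groups compared, or the length and GC correction. They were 0 with log2(FPKM + 0.1) or unfiltered limma. For day 4 against day 0 in S4KO (4), unfiltered limma gave 2 and the groups compared alone 0. For the difference of changes between S2/3DKO and WT (1), 1 CPM in 2 libraries, no filter and the length and GC correction gave 2, DESeq2 3 and unfiltered limma 0. For that between S4KO and WT (1), no filter and DESeq2 gave 4 and the correction 3. The causes were not tested.

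With each library left out in turn, members called ranged from 4 to 6 in S2/3DKO against WT at day 0 and 1 to 3 at day 4, and from 0 to 4 in S4KO against WT at day 0 and 1 to 3 at day 4. They ranged from 3 to 5, 0 to 2 and 0 to 5 for day 4 against day 0 in WT, S2/3DKO and S4KO. They ranged from 0 to 3 and 4 to 6 in S4KO against S2/3DKO at day 0 and day 4, and from 0 to 2 and 1 to 2 for the changes of S2/3DKO and S4KO against WT.

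Uncalled values that reversed were Lamc1 in S2/3DKO against WT at day 4 (-0.12 in the 3 limma fits, -0.03 with the length and GC correction) and Lamb1 in the change of S4KO against WT (0.11 with that correction). With a library left out, Lamc1 ranged from -0.02 to 0.16 in S2/3DKO and -0.21 to 0.15 in S4KO against WT at day 4, from -0.75 to 0.26 with time in S2/3DKO, and from -0.30 to 1.02 and -0.31 to 0.05 in S4KO against S2/3DKO at day 0 and day 4. Col4a2 and Sparc in S4KO against WT at day 0 ranged from -0.02 to 0.95 and -0.46 to 0.14, Nid1 in the change of S2/3DKO against WT from -0.03 to 0.57, and Lamb1 in that of S4KO from -0.52 to 0.00.

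Same-numbered libraries of different groups deviated together in 2 of 15 group pairs (r above 0.1, range -0.15 to 0.34). No general pairing by replicate number was thus seen, but with 2 libraries a group this cannot exclude that some shared a batch. The replicate block moved no other count of members by over 1.5 times. With 2 libraries a group, a difference that misses the threshold is not shown to be absent.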

Other observations

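Lists for further cell types were measured beside the basement membrane genes. The 8 pluripotency markers summed to 791 to 1296 FPKM in S4KO, 458 to 529 FPKM in S2/3DKO and 933 to 1207 FPKM in WT embryoid bodies, and to 2518 to 2773, 1556 to 2489 and 2673 to 2939 FPKM in the ES cells in the same order. By day 4, 5 of 8 fell in S4KO, where 3.81% of all genes did, 7 in S2/3DKO, where 3.46% did, and 8 in WT, where 19.9% did. Pou5f1 averaged 366, 122 and 495 FPKM in S4KO, S2/3DKO and WT embryoid bodies, Tdgf1 115, 84.1 and 280 FPKM, and Nanog 127, 73.7 and 122 FPKM. The 8 primitive streak and mesoderm markers summed to 5.35 to 8.58 FPKM in S4KO, 3.02 to 3.86 FPKM in S2/3DKO and 164 to 180 FPKM in WT embryoid bodies, with Mesp1 at 0 in both knockouts. Eomes averaged 4.24, 2.12 and 71.8 FPKM there, T 0.960, 0.206 and 60.5 FPKM, and Mixl1 0.358, 0.0263 and 23.8 FPKM.

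The 8 markers of fibroblasts, which also make collagen IV and Sparc, summed to 3.08 to 14.1 FPKM over the 12 libraries, and Lum was at 0 in 5 of the 6 groups. The highest group means were 8.53 FPKM for Thy1, in WT embryoid bodies, and 5.17 FPKM for Pdgfrb and 3.35 FPKM for Postn, both in S2/3DKO embryoid bodies. The 6 endothelial markers summed to 8.15 to 41.3 FPKM. Pecam1, which ES cells also express, had group means of 6.82 to 32.8 FPKM, Tek of 0.926 to 4.23 FPKM, and Emcn was at 0 in every group but WT day 0. Cdh5 had a mean of 11.6 FPKM in S2/3DKO embryoid bodies and at most 2.12 FPKM elsewhere.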
